A study of Mus musculus with 20 samples.

Results

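The comparison of 8-cell embryos with blastocysts used 8 of the 20 arrays of a mouse preimplantation series: all 4 arrays titled 8-cell and all 4 titled blastocyst. Every probe set of the Affymetrix MOE430A array that is not a control entered it, 22626 in all, and 17208 of these were bright enough to be tested. Total RNA of the embryos had been amplified by 2 rounds of in vitro transcription before hybridization. The other 12 arrays hold oocytes, 1-cell and 2-cell embryos, 4 arrays each, and helped to set which probe sets were tested and which stood for a gene, to estimate the spread between arrays and to show where a gene stood earlier. The labels give no strain, age, treatment, collection day or number of embryos for either stage, and do not say whether the 4 arrays of a stage came from separate collections of embryos, so the p-values reflect array-to-array spread alone, possibly of technical origin.

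Between these stages the embryo compacts, its outer cells polarize, and cells are set aside as an epithelial trophectoderm around a fluid-filled cavity or as an inner cell mass, part of which then becomes primitive endoderm. The trophectoderm forms the placenta, pumps the fluid and is held together by keratins and by tight, adherens and desmosomal junctions, while the inner cell mass gives rise to the fetus. Energy supply is known to move over the same period from pyruvate towards glucose, with rising oxygen use. Each array measured whole embryos, so more cells of a kind and more RNA per cell cannot be told apart here.

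Of the 17208 probe sets, 7742 (45.0%) differed between the stages at an adjusted p under 0.05 by limma's moderated test with Benjamini-Hochberg adjustment over all probe sets, with 3359 (19.5%) higher and 4383 (25.5%) lower in blastocysts. Taking for each gene, as its representative, the probe set with the highest mean log2 value over all 20 arrays, 4762 of 10257 genes (46.4%) were called, 2052 (20%) higher and 2710 (26.4%) lower. A change of at least 2-fold was reached by 1129 risen and 939 fallen genes, and of at least 8-fold by 73 and 28. In 3954 of the 10257 genes (38.55%) the 4 values of 1 stage did not overlap those of the other, so a lack of overlap named below is common. Differences are given as blastocyst minus 8-cell on the scale log2(intensity + 12.15), so 1 is a doubling, and the added constant makes changes of dim genes look smaller than they were.

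The direction of a small change depended on how the arrays were put on 1 scale, and rises held across scales more often than falls. The deposited intensities share a trimmed mean of 150.1 on every array, and on that scale the median gene stood at -0.22. Quantile normalization moved that median to -0.11, centring each array on its median to 0.01, and scaling to bacterial and phage control transcripts, added in fixed amounts before hybridization, to 0.70. The share of calls that were rises went from 43.4% on the deposited scale to 50.1%, 63.0% and 96.0% on these 3 scales. Of the 2052 risen genes 1911 were called higher on all 4 scales, whereas of the 2710 fallen genes 183 were called lower on all 4. All 3 other scales raised the median, so holding on all 4 was a stricter condition for a fall than for a rise. No scale that lowered the median was tried. A rise or fall of a single gene named below held on all 4 scales unless the sentence says otherwise. Counts over gene lists are calls on the deposited scale, and a fall counted there need not have held on the other 3.

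**Figure D1:**
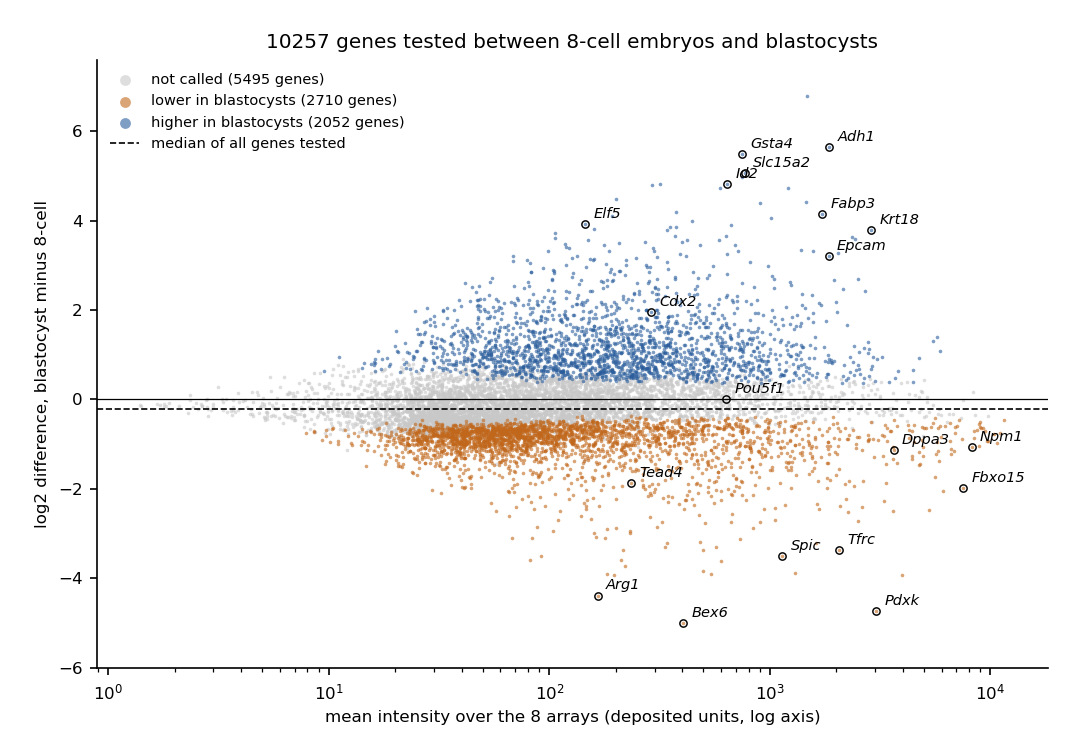
Each point is 1 of the 10257 genes tested. The horizontal axis is its mean intensity over the 8 arrays in deposited units on a log axis and the vertical axis its log2 difference, blastocyst minus 8-cell. Blue points (2052) were called higher and orange points (2710) lower in blastocysts, and the dashed line is the median of all genes at -0.22. Rises reach further from 0 than falls, and Adh1 at 5.66 and Bex6 at -5.01 mark the ends among the named genes.

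The arrays of a stage resembled each other more than those of the other stage. Pearson correlations of log2 values over probe sets lay between 0.934 and 0.946 within the 8-cell arrays, between 0.955 and 0.971 within the blastocyst arrays and between 0.801 and 0.858 across. The 3′ to 5′ ratios of the control probe sets moved with stage in opposite directions. That of beta-actin was 3.67 ± 0.234 (SD, n = 4) at 8-cell and 1.99 ± 0.326 in blastocysts, and that of Gapdh was 1.28 ± 0.468 and 5.81 ± 1.96. The Gapdh signal itself differed, at 118.5 ± 38.3 and 2374 ± 499.9 on the 3′ probe set and 98.8 ± 33.1 and 471 ± 281 on the 5′. Its 8-cell ratio thus divides far dimmer signals, and what the ratios say of RNA quality was not tested. The median intensity was 52.5 ± 6.88 and 43.1 ± 5.49. One 8-cell array carried oviduct transcripts, with Ovgp1, an oviduct secretory glycoprotein, at 194, 3105, 113 and 46.5 and lactoferrin (Ltf) at 45.8, 926, 48.4 and 13.4 on 8-cell arrays 1 to 4, against 24.4 to 56.5 and 6.6 to 53.4 on the blastocyst arrays. The summed level of the 15 oviduct and uterus genes on the array, tested or not, ran from 405 to 4624 at 8-cell and from 291 to 441 in blastocysts. For cumulus and granulosa cells (16 genes) the sums ran from 567 to 1095 and 383 to 646, and for sperm (15) from 421 to 632 and 463 to 557. For blood and endothelium (16) they ran from 458 to 894 and 382 to 534, and for fibroblasts (15) from 565 to 889 and 425 to 696. In this order 13, 9, 9, 12 and 10 of the genes were tested, and 2 of those tested were higher in blastocysts. They were the sperm tail and centrosome gene Odf2 (1.65, with an oocyte mean of 573) and the matrix gene Fbln1 (0.91, with an oocyte mean of 40.3). The part of other cells in the results was not tested, but leaving out 8-cell array 2 is among the alternatives, and its effect is given where it changed a call or moved a count by over 1.5 times.

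The largest rises joined enzymes, transporters and cytoskeletal genes. Adh1, an alcohol dehydrogenase that oxidizes retinol, gave 49.2, 55.4, 57.9 and 49.0 on the 8-cell arrays and 2959.5, 5949, 4284 and 1501 on the blastocyst arrays, a difference of 5.66 ± 0.35 SE (adjusted p = 1.3e-12). All 8-cell values lay below 60, where Adh1 had also stood in oocytes, 1-cell and 2-cell embryos, and blastocyst array 4 was the lowest of its group. Slc15a2, a transporter of small peptides, went from 18, 44.3, 43.2 and 31.2 to 1486, 1643, 1624 and 1279 (5.07 ± 0.25 SE, adjusted p = 1.11e-14). B3gnt5, which starts lacto-series glycolipid chains, went from 34.8, 24.5, 49.1 and 33.0 to 1371, 1379.5, 1638 and 1466 (4.98 ± 0.23 SE, adjusted p = 2.99e-15). In both genes the blastocyst values lay within a narrow band, far above any 8-cell value. Enpep, a surface aminopeptidase, rose by 4.74 and Prxl2a, a peroxiredoxin-like protein, by 4.74. Fabp3, which carries fatty acids inside cells, already read 143, 169, 197 and 175 at 8-cell and reached 3073, 4301, 2664 and 3100.1 (4.16 ± 0.21 SE, adjusted p = 3.39e-14). Among the actin-linked genes were Tmsb4x, a thymosin that binds actin monomers (4.41), Cnn2, a calponin (4.21), and S100a10, the partner of annexin A2 (3.99). Lgals1, a galectin, rose by 4.06 on its representative probe set and by 6.69 on the other, which read higher in blastocysts. Ech1, a fatty acid oxidation enzyme, rose by 4.12, and Mbnl3, a splicing regulator of the muscleblind family, by 3.87. The largest difference of any probe set, 6.80, belonged to the clone BC053393, whose name falls outside the naming rule and which was picked after its value was seen.

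The 250 bases before the Adh1 start, in RefSeq on GRCm38.p6, plus strand, are shown because this gene had the largest rise among established symbols when each gene is read on its representative probe set. The letters AGATAA, the core of GATA sites, are in capitals where they occur on either strand.
Adh1 upstream window, chr3:138277335-138277584, plus strand: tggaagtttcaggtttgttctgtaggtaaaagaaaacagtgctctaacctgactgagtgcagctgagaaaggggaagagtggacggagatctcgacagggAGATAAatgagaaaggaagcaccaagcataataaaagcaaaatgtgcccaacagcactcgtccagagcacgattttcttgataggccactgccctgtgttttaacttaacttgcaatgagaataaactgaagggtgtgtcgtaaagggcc
They occur in 6.44% of the 8278 such windows of tested genes and in 4.89% of the 225 whose gene rose at least 4-fold on all 4 scales. A match describes letters and not a bound site.

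Genes of the trophectoderm mostly rose, while of all genes 20% rose and 26.4% fell. Of 18 regulators of the lineage that were tested, 11 rose and 3 fell, with a median of 0.71 against -0.22 over all genes, and of 26 genes for its products 20 rose and 3 fell, with a median of 1.5. The 20 include Gm2a, a lysosomal activator protein, which was not called after quantile normalization or when any 1 of 6 arrays was left out. Of the 8 genes fixed as trophectoderm markers, 7 rose and the water channel Aqp3 did not pass (0.16 ± 0.24 SE, adjusted p = 0.602). Of the 6 markers fixed for the inner cell mass 3 were called higher, 2 lower and 1 neither, and the 6 for primitive endoderm gave the same counts.

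Cdx2, the caudal-type factor needed to form the lineage, gave 27, 162, 226 and 111 at 8-cell and 428, 474, 516 and 379 in blastocysts. Of the 8-cell arrays, array 1 was the lowest, and no 8-cell value reached the lowest blastocyst value (1.95 ± 0.33 SE, adjusted p = 3.02e-05). Eomes, a T-box factor of trophoblast stem cells, gave 80.1, 140.2, 138 and 139.5 and then 724, 853, 1138 and 1007 (2.80 ± 0.23 SE, adjusted p = 1.82e-10). Gata3, a zinc finger factor acting beside Cdx2, gave 5.5, 37.0, 7.2 and 4.3 and then 182, 208, 320.4 and 219 (3.38 ± 0.33 SE, adjusted p = 5.32e-09). Elf5, an Ets-family factor that sustains trophoblast stem cells, was near the floor at 8-cell with 6.9, 6.5, 7.1 and 5.3 and gave 179, 332, 223 and 405 in blastocysts (3.93 ± 0.28 SE, adjusted p = 1.03e-11). The groups did not overlap in any of these 4 genes, nor did they in 38.55% of all genes tested. Id2, an inhibitor of helix-loop-helix factors and an early trophectoderm marker, gave 16.1, 22.1, 129 and 11.1 and then 1078, 1863, 802 and 1195 (4.82 ± 0.39 SE, adjusted p = 1.4e-10). Array 3 was the highest 8-cell array for Id2 and Cdx2 and also for Hsd3b1, a steroid enzyme of the cumulus list, which read 32.5, 46.8, 343 and 20.7 on the 8-cell arrays. The part of that array in the differences was not tested. Tfap2a rose by 2.35 and Gata2 by 1.46, both factors of the trophoblast.

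The 3 regulators called lower were not called so on all 4 scales. Tead4, the DNA-binding partner of the Hippo pathway's co-activators and needed for Cdx2 expression, gave 363, 308, 409 and 406 at 8-cell and 92.7, 68.7, 76.2 and 147 in blastocysts (-1.87 ± 0.24 SE, adjusted p = 5.58e-07). The values did not overlap, and on the control-transcript scale the difference of -0.79 was not called. Tfap2c, an AP-2 factor active from the first cleavages, gave -0.94 ± 0.23 SE (adjusted p = 0.00148) but 0.19 on the control-transcript scale. Hand1, a later trophoblast factor, gave -1.18 and was not called on that scale (-0.15).

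Krt8 and Krt18, the keratin pair of the first epithelium, both rose. Krt8 gave 242, 452, 313 and 383 at 8-cell and 4144, 4661, 4580.4 and 4102 in blastocysts (3.64 ± 0.26 SE, adjusted p = 1.52e-11), and Krt18 gave 223, 600.4, 337 and 422 and 4573, 6242, 5362 and 5206 (3.79 ± 0.23 SE, adjusted p = 6.17e-13). Within blastocysts both varied little from array to array, and their differences were alike in size. Krt7 rose by 1.73. Ndrg1, a stress-linked gene of trophoblast, rose by 3.91 with blastocyst values of 815, 2007, 1729.7 and 518, where arrays 1 and 4 were the low ones. Gjb5, a connexin of trophoblast, rose by 3.82, Tspan8, a tetraspanin, by 2.75, Fgfr2, the receptor through which Fgf4 acts on trophectoderm, by 1.02, and Plac1 by 1.02.

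The upstream windows of Krt8, Krt18 and Elf5 are shown side by side, since the first pair are neighbours that moved together and Elf5 had the largest rise among the DNA-binding factors of the list. All are 250 bases before the RefSeq start on GRCm38.p6, and capitals mark matches on either strand. The keratin windows were searched for AGATAA, the core of GATA sites, and for GCCNNNGGC, that of AP-2 sites. The Elf5 window was searched for AGATAA and also for GGAATG, which TEAD factors bind.
Krt8 upstream window, chr15:102004343-102004592, minus strand: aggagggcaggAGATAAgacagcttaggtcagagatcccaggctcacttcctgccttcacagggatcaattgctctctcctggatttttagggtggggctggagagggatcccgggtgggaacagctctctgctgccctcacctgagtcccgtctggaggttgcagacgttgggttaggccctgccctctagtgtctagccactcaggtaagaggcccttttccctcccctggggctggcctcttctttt
Krt18 upstream window, chr15:102027966-102028215, plus strand: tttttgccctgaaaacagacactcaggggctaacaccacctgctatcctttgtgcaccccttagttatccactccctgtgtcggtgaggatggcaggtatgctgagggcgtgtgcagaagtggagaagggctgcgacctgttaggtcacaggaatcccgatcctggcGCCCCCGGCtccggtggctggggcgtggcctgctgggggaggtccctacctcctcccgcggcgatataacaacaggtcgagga
Elf5 upstream window, chr2:103411848-103412097, plus strand: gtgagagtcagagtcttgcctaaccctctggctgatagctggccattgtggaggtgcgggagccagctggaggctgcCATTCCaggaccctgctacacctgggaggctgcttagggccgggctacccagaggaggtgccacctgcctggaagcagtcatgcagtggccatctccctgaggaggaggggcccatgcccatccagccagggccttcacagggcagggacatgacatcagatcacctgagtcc
The AP-2 letters occur in 7 of 22 windows of the trophectoderm product genes (31.8%) and in 19.8% of the 8278 windows. The GATA letters occur in 3 of the 22 (13.6%), against 6.44%, and the TEAD letters in 2 of the 22 (9.09%), against 10.8%. Of 12 windows of the regulators, 3 hold the AP-2 letters (25%), 0 the GATA letters and 2 the TEAD letters (16.7%). These are descriptions of few windows, and no test was made.

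**Figure D2:**
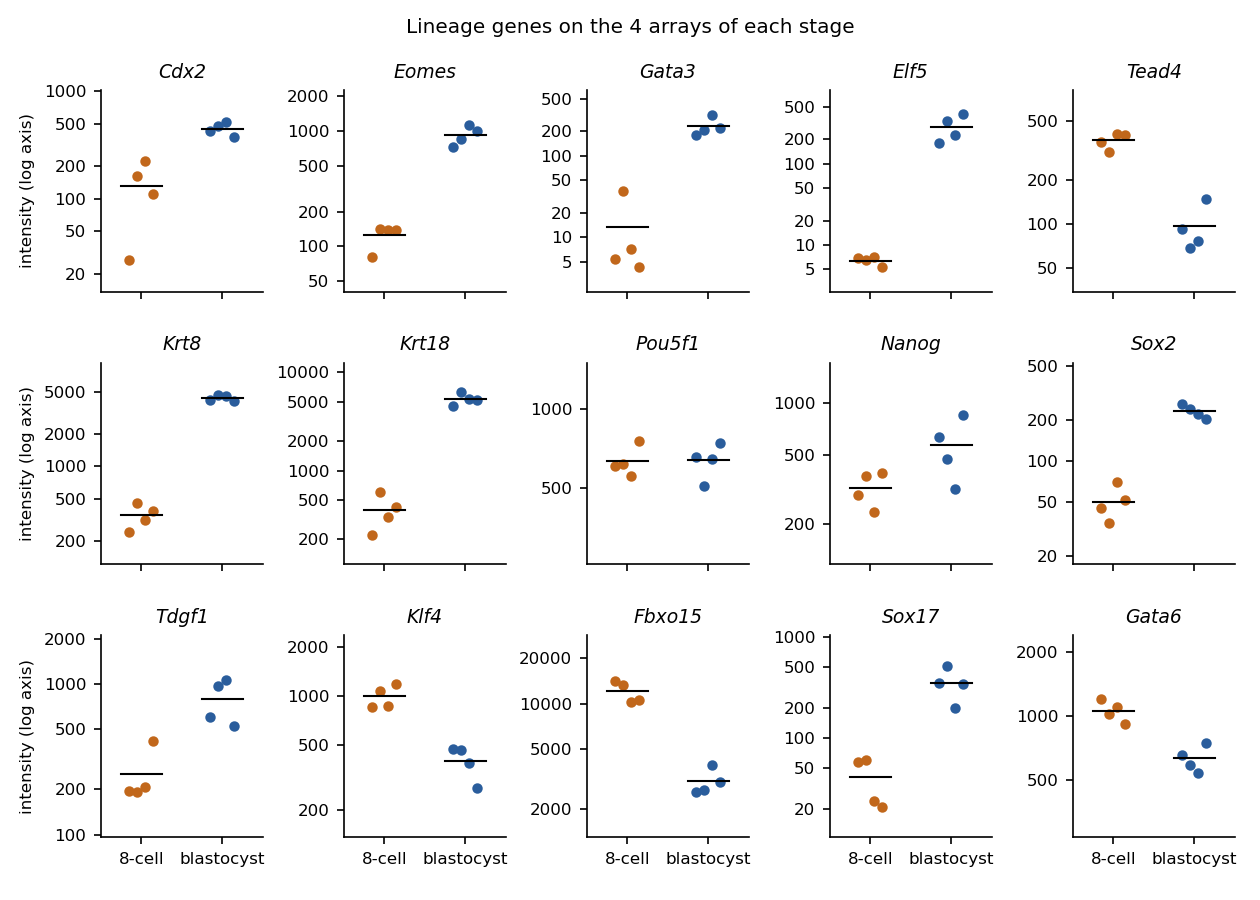
Intensity on the deposited scale, on log axes that differ between panels, of 15 lineage genes on the 4 8-cell arrays (orange) and the 4 blastocyst arrays (blue). Each point is 1 array and each bar a mean. Pou5f1 and Nanog overlap between the stages, while Krt8, Krt18 and Elf5 are separated widely.

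The pluripotency genes did not move as one. Of 29 tested, 8 rose and 13 fell, against 20% and 26.4% of all genes. The median of -0.37 was 0.56 on the control-transcript scale, and of the 13 falls 3 held on all 4 scales. Pou5f1, the POU factor that both lineages start with, gave 606, 615, 556 and 755 at 8-cell and 653, 507, 644 and 740.2 in blastocysts, a difference of 0.00 ± 0.19 SE (adjusted p = 0.993). Nanog, the homeobox factor of the epiblast, gave 295, 378, 234 and 392 and 636, 473, 319.8 and 857, overlapping groups with a difference of 0.73 ± 0.28 SE (adjusted p = 0.0339). It was not called after quantile normalization or without any 1 of 8-cell arrays 1 and 3 and blastocyst arrays 1 and 4. Sox2, the partner of Pou5f1, was clearly separated, at 45.1, 34.9, 69.7 and 51.7 and 264, 240.0, 222 and 204 (1.99 ± 0.23 SE, adjusted p = 7.23e-08). Tdgf1, a co-receptor of TGF-beta family ligands, gave 194, 193, 208 and 419 and 603, 978, 1062 and 524 (1.61), and its 8-cell array 4 stood closest to the blastocyst values. Morc1 rose by 3.63, Bmp4, a signalling ligand, by 2.19, Tfcp2l1, a naive pluripotency factor, by 1.98, and Zfp42 (Rex1) by 0.99.

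Spic, an Ets-family factor, gave 2653, 2029, 1752 and 1920.4 at 8-cell and 322, 134, 189 and 100.3 in blastocysts, the largest fall of the list (-3.51 ± 0.31 SE, adjusted p = 7.74e-10). Fbxo15, an F-box gene active in pluripotent cells, gave 14204, 13268, 10171 and 10473 at 8-cell and 2608, 2683, 3903 and 3012 in blastocysts (-1.98 ± 0.16 SE, adjusted p = 1.18e-10). Both had stood far lower in oocytes, with means of 15.3 and 114, and the blastocyst values of Fbxo15 stayed far above its oocyte mean. Tbx3, a T-box factor, fell by 2.11. Klf4, Klf2 and Nr5a2, factors that sustain naive pluripotency, gave -1.30, -1.22 and -1.75, and none of these was called on the control-transcript scale (-0.17, -0.17 and -0.62). Esrrb gave -0.76, with 0.19 on that scale, and Dppa3 (Stella), a maternal factor that protects DNA methylation, -1.14 with 0.01. Fgf4, the ligand that the inner cell mass sends, depended on the probe set. Its representative read 139 ± 25.6 (SD, n = 4) at 8-cell and 82.5 ± 27.9 in blastocysts (-0.71, with 0.31 on the control-transcript scale and no call without blastocyst array 3), while the other probe sets of Fgf4 read 12.6 ± 6.20 and 12.6 ± 0.922 at 8-cell and 115 ± 31.8 and 117 ± 28.5 in blastocysts, both a rise of 2.36 called on all 4 scales.

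Primitive endoderm genes rose in 12 of 22 cases and fell in 3, against 20% and 26.4% of all genes, with a median of 0.69. Those that rose were mostly the matrix and uptake products of that epithelium. Lrp2 (megalin), an endocytic receptor, gave 28.1, 128, 113 and 40.9 and 1255, 644, 1019.6 and 613 (3.45 ± 0.35 SE, adjusted p = 9.35e-09), and Lama1, a laminin chain, went from under 6 on every 8-cell array to 59.8, 91.4, 88.1 and 80.0 (2.61). Sparc rose by 2.15, Lamb1 by 2.00, Fn1 (fibronectin) by 1.89, Col4a1 by 1.76 and Dab2, a cargo adaptor, by 1.16. Of the factors, Sox17 gave 58.5, 60, 24.1 and 21.0 and 351, 521, 199 and 343 on its representative probe set (2.80 ± 0.30 SE, adjusted p = 2.55e-08), while the other differed by 0.40 (adjusted p = 0.356). Gata6, the earliest factor of the lineage, was already high at 8-cell with 1195, 1018, 1093 and 916 and gave 653, 583, 538 and 745 in blastocysts (-0.74 ± 0.18 SE, adjusted p = 0.00173), but 0.40 on the control-transcript scale. Gata4 gave -0.74 and 0.23 on that scale, with values near the array medians. Pdgfra, a receptor of primitive endoderm, depended on the probe set. It rose by 3.23 on 1, from 15.2 ± 15.5 to 222 ± 61.4 (SD, n = 4), and did not pass on the representative (0.22 ± 0.34 SE, adjusted p = 0.623), which read 47.1 ± 21.1 and 54.1 ± 5.34 at these stages. Over the array, 131 of 1243 genes with more than 1 called probe set (10.5%) had calls in both directions.

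Junction genes rose far more often than they fell, while of all genes 20% rose and 26.4% fell. Of 19 adherens junction and desmosome genes 11 rose and none fell, also at an unadjusted p under 0.05 (median 0.97), and of 17 tight and gap junction genes 6 rose and 1 fell. Desmosome genes rose most: the cadherin Dsg2 gave 50.4, 46.0, 70.0 and 49.2 and 918, 1067, 585 and 589 (3.57 ± 0.28 SE, adjusted p = 9.78e-11), the cadherin Dsc2 35.4, 3.4, 3.1 and 5.1 and 258, 239, 189.8 and 212 (3.49), and the plaque protein Dsp 63.4, 116, 158 and 162 and 1241, 1533, 1025 and 1428 (3.33). In none of these 3 genes did an 8-cell value reach the lowest blastocyst value. Pkp2, a plakophilin, rose by 2.65. Epcam, an epithelial adhesion molecule, gave 219, 301, 445 and 482 and 3281, 2847, 4217 and 2989 (3.21 ± 0.20 SE, adjusted p = 1.19e-12). E-cadherin (Cdh1), which drives compaction, was already at 400.3, 447, 545 and 626 and gave 1000.3, 1095, 757 and 1127, a modest rise of 0.97 ± 0.21 SE (adjusted p = 0.000483). Its catenin partners Ctnnb1 and Ctnna1 rose by 1.18 and 1.14. Among tight junction genes Tjp3 rose by 1.85, Cldn6 by 1.56, Cldn7 by 1.27 and Cldn4 by 1.23, whereas the scaffold Tjp1 (ZO-1) gave 777, 783, 781 and 985 and 792, 691, 976 and 726 and did not pass (-0.07 ± 0.17 SE, adjusted p = 0.764).

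Of 12 genes for filling the cavity, 2 rose and 4 fell, shares near the 20% and 26.4% of all genes, and 1 of those falls held on all 4 scales. Atp1b1, the sodium pump subunit of the trophectoderm, gave 243, 281, 289.8 and 385 and 1331, 1574, 1783 and 1081 (2.22 ± 0.19 SE, adjusted p = 3.84e-10), and the water channel Aqp8 rose by 1.97. Another pump subunit, Atp1b3, gave -1.59, and the water channel Aqp9 gave -1.51, neither called on the control-transcript scale (-0.45 and -0.38). Slc12a2, a sodium, potassium and chloride cotransporter, gave 1357, 1644, 1371 and 1928 and 266, 232, 218 and 178 (-2.75 ± 0.22 SE, adjusted p = 9.1e-11), with no overlap. Of 30 polarity and Hippo pathway genes 10 rose, among them the polarity kinase Prkci (1.72) and the Crumbs-complex scaffold Patj (1.78). Another 8 gave lower calls, a share near the 26.4% of all genes, and none did so on all 4 scales. These included Crb3 (-1.43, and -0.30 on the control-transcript scale) and the Lats co-activator Mob1b (-1.46, and -0.44).

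The actin cytoskeleton rose broadly, with 24 of 36 genes higher and 3 lower (median 1.13), against 20% and 26.4% of all genes. The lower count was 7 without 8-cell array 4 and 1 without blastocyst array 3. Msn (moesin), which links actin to the membrane, gave 90.1, 55.4, 98 and 79.1 and 900.1, 915, 1377 and 1175 (3.57 ± 0.24 SE, adjusted p = 3.87e-12), and Anxa2, an annexin, rose by 3.00. Myh9, a nonmuscle myosin, gave 492, 862, 569 and 479 and 3948, 6366, 1775 and 2672 (2.48), with its blastocyst values spread widely. Actg1 rose by 1.40 and Actb by 1.09 on its representative probe set, while the other Actb probe set gave -1.46 (adjusted p = 8.75e-07) and was not called lower on all 4 scales. The beta-actin 3′ to 5′ ratio given above moved between the stages too, and its part in these values was not tested. Ezr, close kin of Msn, gave opposite calls, 2.30 on 1 probe set and -0.68 on the representative, which was 0.43 on the control-transcript scale and not called without 8-cell array 1 or blastocyst array 3.

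Glucose genes changed member by member. Of 25 genes for sugar and lactate transport and glycolysis, 11 rose and 4 fell, against 20% and 26.4% of all genes. Slc2a3, the high-affinity glucose transporter of the trophectoderm surface, gave 310.1, 302, 366 and 537 and 3295, 4005, 3908 and 3484 (3.27 ± 0.22 SE, adjusted p = 4.84e-12), and the widely used transporter Slc2a1 gave 38.0, 23.5, 47.3 and 40.6 and 213, 224, 154 and 326 (2.26 ± 0.27 SE, adjusted p = 1.39e-07). Hexokinases, which trap glucose, went opposite ways: Hk2 gave 243, 502, 418 and 468 and 1456, 1753, 1857 and 1456 (2.01), and Hk1 gave 137, 174, 281 and 196 and 23.9, 21.2, 10.7 and 49.1 (-2.49 ± 0.31 SE, adjusted p = 3.01e-07). Neither overlapped between the stages. Further down the pathway Aldoa (aldolase) rose by 1.88, Tpi1 by 2.48, Pgk1 by 2.17 and Pkm (pyruvate kinase) by 3.47. The lactate dehydrogenase subunit Ldha rose by 1.10. Ldhb, the abundant oocyte subunit, went on down from an oocyte mean of 6692 to 529, 336, 234 and 273 and then 106, 168, 87.7 and 132 (-1.36, not called on the control-transcript scale at -0.27). The lactate and pyruvate carrier Slc16a1 rose by 2.00.

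**Figure D3:**
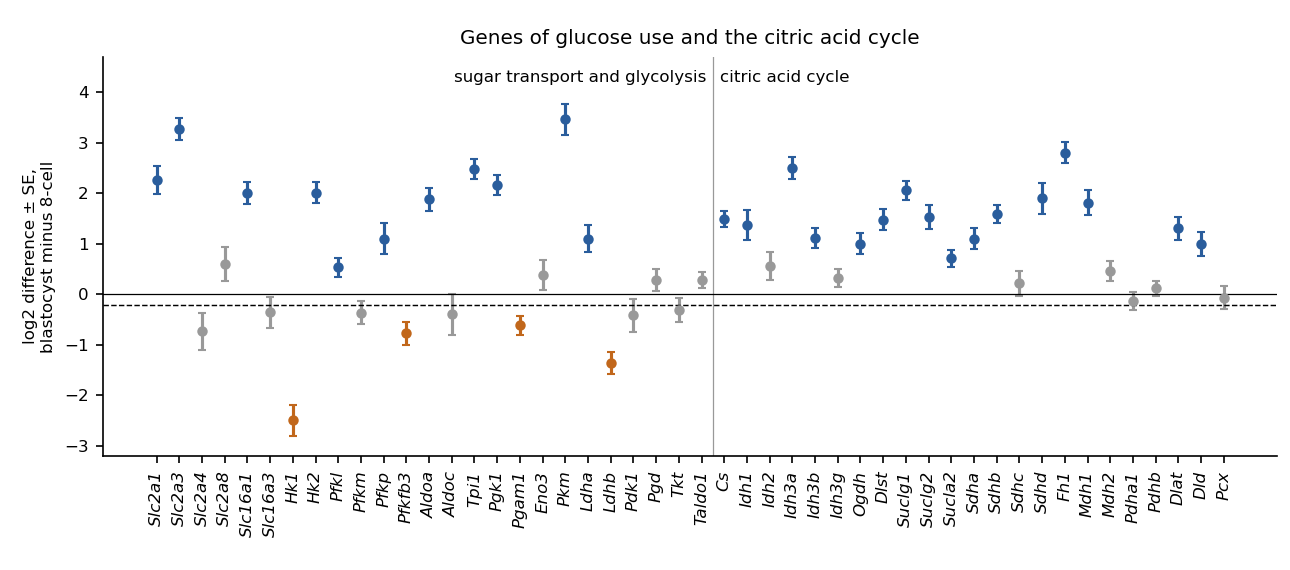
Log2 difference, blastocyst minus 8-cell, with its standard error for every tested gene of the sugar and glycolysis list (left of the line, 25 genes) and of the citric acid cycle list (right, 23 genes). The latter list includes genes of linked reactions such as pyruvate dehydrogenase. Blue marks genes called higher, orange lower and grey not called, and the dashed line is the median of all genes at -0.22. Hk1 at -2.49 and Hk2 at 2.01 lie on opposite sides, and no citric acid cycle gene was called lower.

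The citric acid cycle and the respiratory chain rose together. Of 23 genes of the cycle and linked reactions, pyruvate dehydrogenase among them, 16 rose and none fell (median 1.12). Of 67 respiratory genes 50 rose and none fell (median 0.89), against 20% of all genes rising. By limma at an unadjusted p under 0.05, 17 and 53 were higher and 0 lower. These counts take the representative probe set of each gene. Over all 128 probe sets of the respiratory genes, 85 were called higher and 2 lower. Fh1 (fumarase) gave 165, 148, 184 and 109.8 and 972, 1224, 1228 and 1062 (2.81 ± 0.20 SE, adjusted p = 2.21e-11), and Idh3a, the catalytic subunit of the cycle's isocitrate dehydrogenase, gave 253, 229, 365 and 356 and 1394, 1322, 2402 and 2004 (2.50 ± 0.22 SE, adjusted p = 7.39e-10). Suclg1 rose by 2.06, Sdhd and Sdhb, subunits of complex II, by 1.90 and 1.59, and Cs (citrate synthase) by 1.49. By complex, 27 of 33 genes of complex I rose (median 0.91), 6 of 9 of complex III (0.98), 5 of 9 of complex IV (0.56) and 12 of 15 of the ATP synthase (0.94). Within complex I the differences ran from 0.04 to 1.93. Ndufa3 gave 224, 264, 220.4 and 186 and 730.2, 737, 1059.8 and 1038 (1.93), Ndufs4 rose by 1.87, Cyc1 of complex III by 1.76, Cox5b of complex IV by 1.13 and Atp5e of the synthase by 1.28. Among the respiratory genes the lowest count of rises with 1 array left out was 48 and the highest 52.

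The window of Ndufa8 (1.55) is shown with the letters GCGCATGCG of nuclear respiratory factor 1 (NRF1) in capitals. This gene had the largest rise of that list among genes with those letters, with a single chromosome left out of the choice. The window is the 250 bases before the RefSeq start on GRCm38.p6.
Ndufa8 upstream window, chr2:36049339-36049588, minus strand: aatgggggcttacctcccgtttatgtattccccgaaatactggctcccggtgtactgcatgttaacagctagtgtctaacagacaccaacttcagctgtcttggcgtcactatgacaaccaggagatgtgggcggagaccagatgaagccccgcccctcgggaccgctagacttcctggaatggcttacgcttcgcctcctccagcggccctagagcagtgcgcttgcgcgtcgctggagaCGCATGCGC
The NRF1 letters occur on either strand in 6 of 57 windows of respiratory genes (10.5%) and in 2.72% of the 8278 windows of tested genes, as a description only.

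Ribosome genes fell on the deposited scale, and most of these falls did not hold on all 4 scales. Of 52 ribosome biogenesis genes 33 fell and none rose, against 26.4% and 20% of all genes, with a median of -0.64. After quantile normalization 33 were again lower and none higher (median -0.65), but after centring on the array median 16 were lower (median -0.41). On the control-transcript scale 3 were lower and 14 higher (median 0.46). At an unadjusted p under 0.05 limma put 35 lower and 0 higher. Of 43 ribosomal protein genes 24 fell and none rose (28 and 0 unadjusted), with a median of -0.55. After quantile normalization 6 were lower (median -0.06) and after centring 7 (median -0.33). On the control-transcript scale 0 were lower and 19 higher (median 0.60), so no fall of this list held on all 4 scales. The medians of all genes were -0.22 on the deposited scale, -0.11 after quantile normalization, 0.01 after centring and 0.70 on the control-transcript scale. Over all probe sets rather than representatives, 52 were called lower and 1 higher for biogenesis, and 45 lower and 1 higher for ribosomal proteins. Among biogenesis genes the fall held on all 4 scales for Wdr43, Nolc1 and Ddx21. Wdr43, a factor of the small subunit processome, gave 3069.5, 2788, 2654 and 2854 and 546, 554, 539 and 421 (-2.44 ± 0.15 SE, adjusted p = 1.2e-12). Nolc1, a nucleolar assembly protein, gave 1754, 1657, 1799.8 and 2786 and 476, 469, 583 and 438 (-1.97 ± 0.22 SE, adjusted p = 4.21e-08), and Ddx21, a nucleolar helicase, 906, 937, 1070.4 and 1739 and 294, 289, 247 and 293 (-1.95). In Nolc1 and Ddx21 8-cell array 4 was the highest. Npm1 (nucleophosmin) gave -1.06 but 0.09 on the control-transcript scale. Without 8-cell array 2 the falls among ribosomal proteins numbered 16. Of 35 splicing genes 3 rose and 9 fell, the falls at a share near the 26.4% of all genes. Among them Hnrnpa1 alone fell on all 4 scales (-2.34 ± 0.17 SE, adjusted p = 1.66e-11).

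The 250 bases before the Nolc1 start (RefSeq, GRCm38.p6) are shown with CCGGAAG, the core letters of Ets-family sites, in capitals on either strand. Nolc1 had the largest fall of the biogenesis list among genes whose window holds them, with a single chromosome left out of the choice.
Nolc1 upstream window, chr19:46075597-46075846, plus strand: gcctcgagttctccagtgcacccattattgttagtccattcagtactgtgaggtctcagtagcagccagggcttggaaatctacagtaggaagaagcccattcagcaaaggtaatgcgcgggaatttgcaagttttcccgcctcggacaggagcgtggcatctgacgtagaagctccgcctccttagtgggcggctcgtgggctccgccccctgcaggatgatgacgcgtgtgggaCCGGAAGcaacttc
Those letters occur in 17 of 48 windows of ribosome biogenesis genes (35.4%), in 16 of 38 of ribosomal protein genes (42.1%) and in 12.9% of the 8278 windows. The share among the 148 genes lower on all 4 scales was 6.08%.

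**Figure D4:**
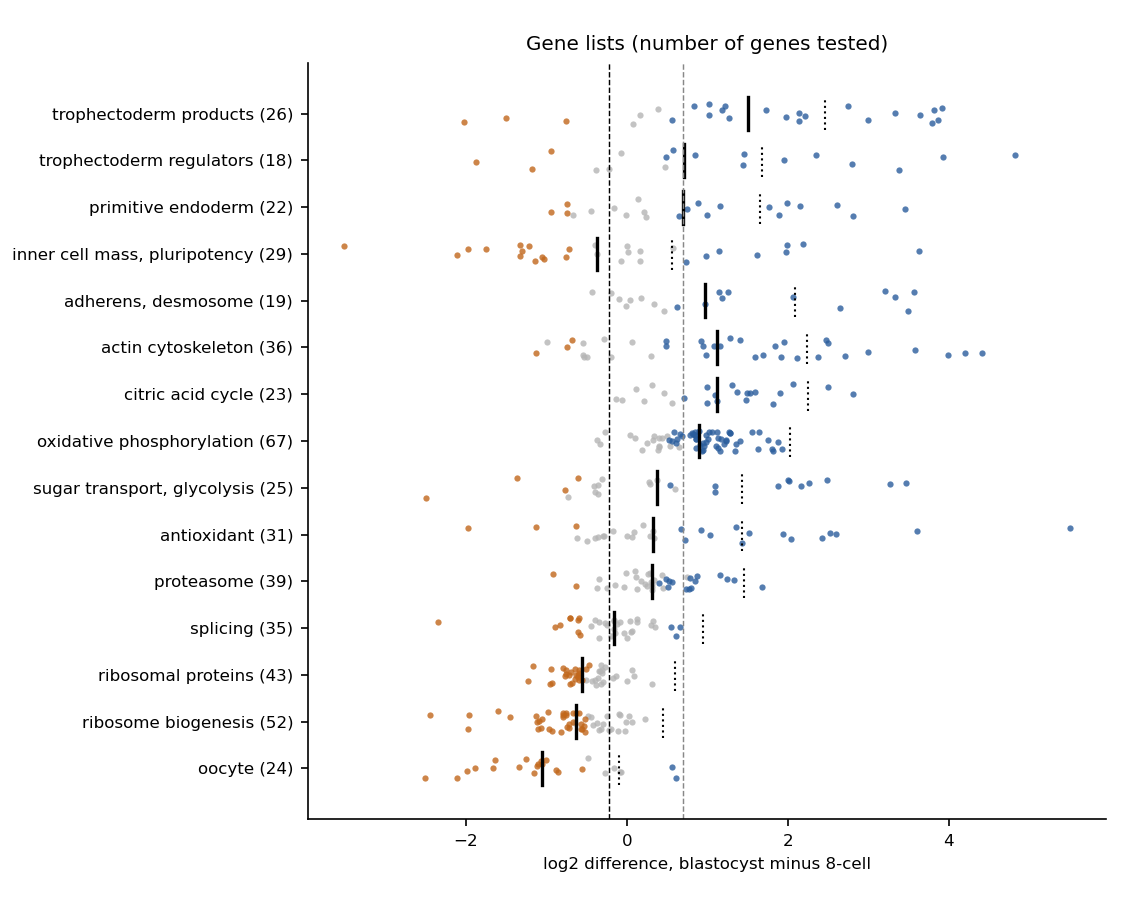
Log2 difference, blastocyst minus 8-cell, of every tested gene of 15 lists, with the number tested in brackets. Blue points were called higher, orange lower and grey neither, solid bars are list medians on the deposited scale and dotted bars medians on the control-transcript scale, with the medians of all genes at -0.22 (black dashes) and 0.70 (grey dashes). Trophectoderm products, cycle and actin genes lie to the right of both, and ribosome and oocyte lists to the left on the deposited scale.

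Among the largest falls were genes that had come on after fertilization and went off again. Pdxk, the kinase that makes active vitamin B6, gave 6071, 5147, 5891 and 6243 at 8-cell and 319.9, 128, 177 and 244 in blastocysts (-4.74 ± 0.25 SE, adjusted p = 4.36e-14), from means of 7.35 in oocytes and 1995 in 2-cell embryos. Bex6, of the brain-expressed (Bex) family, gave 1014, 739, 582 and 844 and 16.4, 10.3, 6.5 and 18.3, the largest fall (-5.01 ± 0.21 SE, adjusted p = 7.44e-16), after an oocyte mean of 8.05 and a 2-cell mean of 771. Arg1 (arginase) gave 320.4, 226, 269 and 497 and 4.5, 3.3, 2.9 and 3.0 (-4.39 ± 0.27 SE, adjusted p = 7.72e-13). In these 3 genes every 8-cell value lay far above every blastocyst value. Foxa1, a pioneer factor of endoderm, gave 295, 331, 336 and 444 and 3.9, 25.5, 16.7 and 6.9 (-3.90), and Tfrc, the transferrin receptor for iron uptake, 3406, 4377, 3406 and 3877 and 355, 430.0, 421 and 235 (-3.37 ± 0.19 SE, adjusted p = 2.2e-13). Acsl4, which activates long polyunsaturated fatty acids, fell by 3.94, Stmn3, a stathmin, by 3.61, Cnmd by 3.59 and Bhmt2 by 3.30. Nin (ninein), a centrosome protein, fell by 3.91 and differed from the rest in having an oocyte mean of 883. Ddit4, an inhibitor of mTOR signalling, fell by 3.30, although blastocyst array 4 read 306 and the others 38.5 to 92.4. Zscan5b and Abhd6 had their highest mean at the 2-cell stage and gave -3.37 and -3.22.

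**Figure D5:**
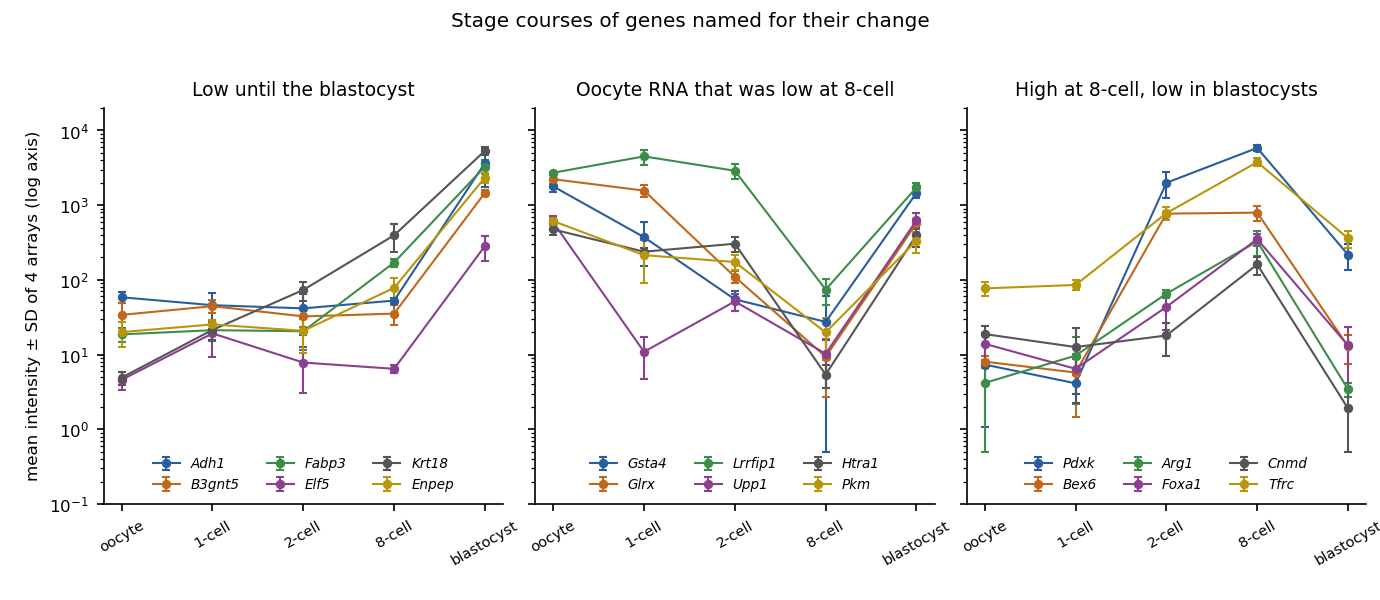
Mean intensity with SD of 4 arrays, on a log axis, at 5 stages for 18 genes named for the size of their change; bars that would pass below 0.5 end there. Left, genes low before the blastocyst; middle, genes high in oocytes, low at 8-cell and high again; right, genes at their highest at 8-cell, or level with 2-cell in Bex6. All 6 genes on the right are lower in blastocysts than at 8-cell.

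Most risen genes had their highest stage mean in blastocysts, and for some the oocyte mean also lay well above the 8-cell mean. The call itself places blastocysts above 8-cell embryos in these genes, so the stages did not compete on equal terms. Of the 2052, 1120 (54.6%) had their highest stage mean in blastocysts, 464 in 1-cell embryos, 352 in oocytes and 116 in 2-cell embryos. Among the 5495 genes not called, 12.4% were at their highest in blastocysts and 23.5% at 8-cell. For 478 risen genes the oocyte mean was at least 4 times the 8-cell mean, and 77 of these changed at least 4-fold to the blastocyst. A low 8-cell mean favours both this ratio and the call, and the share over all genes was not counted. Gsta4, a glutathione transferase that clears lipid aldehydes, had an oocyte mean of 1784, read 12.4, 76.4, 10.4 and 10.3 at 8-cell and 1231, 1365, 1571 and 1681 in blastocysts (5.50 ± 0.36 SE, adjusted p = 2.82e-12). Glrx (glutaredoxin) went from an oocyte mean of 2229 to 19, 4.5, 8.5 and 5.5 and back to 545, 539, 514 and 698 (4.80). Upp1 (uridine phosphorylase), Htra1 (a serine protease) and Lrrfip1 followed the same course with rises of 4.83, 4.50 and 4.40. For each of these 5 genes the lowest stage was the 8-cell embryo. Of the 2710 fallen genes 1405 (51.9%) were at their highest at 8-cell, and of the 122 that changed at least 4-fold 77 were.

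Of the DNA methyltransferases, Dnmt1 and Dnmt3b rose and Dnmt3a did not pass on the deposited scale (0.56 ± 0.25 SE, adjusted p = 0.0676), though it was called higher on the other 3 scales and without 8-cell array 2 or blastocyst array 3. Dnmt1, the maintenance methyltransferase, had an oocyte mean of 3902, gave 158, 155, 120.0 and 147 at 8-cell and 226, 298, 231 and 204 in blastocysts (0.68 ± 0.18 SE, adjusted p = 0.00351), and its partner Uhrf1 rose by 2.42. Dnmt3b, a de novo methyltransferase, gave 477, 548, 569 and 523 and 1551, 1927, 1161 and 1953 (1.59 ± 0.19 SE, adjusted p = 1.65e-07), and its cofactor Dnmt3l rose by 1.56. Over 41 methylation and chromatin genes 11 rose and 13 fell, against 20% and 26.4% of all genes, and none of the falls held on all 4 scales. Of 26 imprinted genes 6 rose and 6 fell, shares near the 20% and 26.4% of all genes. The largest rises were those of the amino acid transporter Slc38a4 (3.66) and the Polycomb-linked Sfmbt2 (3.00), both active in placenta.

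Maternal transcripts went on falling at low level, while of all genes 26.4% fell and 20% rose. Of 24 oocyte genes 17 fell (median -1.06) and 2 rose, a count of 1 without 8-cell array 1 or 4 or blastocyst array 1 or 2 and of 0 without blastocyst array 3, with 6 of the falls on all 4 scales. Nlrp5 (Mater), of the subcortical complex of the egg, fell from an oocyte mean of 4957 to 55.2, 46.8, 59.0 and 80.0 at 8-cell and 2.3, 7.2, 5.4 and 3.4 in blastocysts (-2.10 ± 0.21 SE, adjusted p = 6.5e-09). Btg4, an adaptor for maternal mRNA decay, fell by 1.98 from 110.2, 53.2, 52.5 and 74.3. The growth factor Gdf9 and the egg coat gene Zp3 gave -1.25 and -1.15, not called on the control-transcript scale (-0.22 and -0.21). Genes switched on at the 2-cell stage fell in 8 of 13 cases (5 without 8-cell array 1 or without blastocyst array 1) and rose in none, at an unadjusted p under 0.05 as well, including Pemt (-2.31), a phospholipid methyltransferase.

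Genes of redox defence and of protein handling rose more often than they fell, while of all genes 20% rose and 26.4% fell. Antioxidant genes rose in 14 of 31 cases and fell in 3 (5 without 8-cell array 4), with Gsta4, Akr1b8, an aldo-keto reductase (3.60), Gstp1 (2.52), thioredoxin (Txn1, 2.43) and catalase at the top. Proteasome genes rose in 15 of 39 cases and fell in 2 (1 without 8-cell array 3 or without blastocyst array 4), and endoplasmic reticulum genes in 13 of 30 and 3. Hsp90b1, a chaperone of that compartment, rose by 2.55, and Dnajb9, a co-chaperone, gave 1449, 2215, 1772 and 1937 and 247, 289, 246 and 307 (-2.70 ± 0.16 SE, adjusted p = 7.47e-13). Of 34 lysosome and endocytosis genes 14 rose and 9 fell, against 20% and 26.4% of all genes. The cathepsins Ctsz, Ctsh and Ctsb fell, at -2.24, -2.20 and -1.91.

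Cell cycle lists held calls in both directions, to be read against the 20% of all genes that rose and the 26.4% that fell. Of 41 replication genes 16 rose, led by the single-strand binding subunit Rpa1 (1.82), and 7 fell, none on all 4 scales. Of 39 M phase genes 10 rose and 14 fell, none of the falls on all 4 scales, with Ccnb2 (cyclin B2) at 1.5 and Ccna2 (cyclin A2) at -1.41, the latter not called on the control-transcript scale (-0.27). Ccne1 (cyclin E1) gave 484, 433, 424 and 567 and 111, 86.9, 72.7 and 134 (-2.13 ± 0.24 SE, adjusted p = 6.04e-08). Mycn, a Myc-family factor, rose by 1.87 on its representative probe set and gave -1.18 on the other, which was not called lower on all 4 scales.

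Signalling genes rose in 19 of 64 cases and fell in 12, against 20% and 26.4% of all genes. Parts of the LIF pathway went both ways: the receptor Lifr rose by 2.09, its transducer Stat3 by 1.77, and the feedback inhibitor Socs3 gave 1713, 2375, 782 and 1242 and 596, 670.4, 401 and 86.5 (-1.98 ± 0.42 SE, adjusted p = 0.000442). Receptors of fibroblast growth factor did so as well, with Fgfr2 at 1.02 and Fgfr3 at -2.02 on its representative probe set, and a target of that pathway, the phosphatase Dusp6, rose by 1.78. Id3 gave 793, 606, 633 and 753 and 153, 165, 198 and 121 (-2.06 ± 0.26 SE, adjusted p = 4e-07), the reverse of its relative Id2. Surface proteases and proteoglycans of epithelia were among 14 of 40 matrix genes that rose, while 11 fell (7 without 8-cell array 1 or without blastocyst array 3), with Sdc4 at 3.34, Tmprss2 at 3.21 and Prss8 at 2.85.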

How the data were processed

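Total RNA of 8-cell embryos and blastocysts, 4 arrays each, was read on Affymetrix MOE430A arrays after 2 rounds of amplification, per the labels. The deposited values are intensities on a linear scale, with a trimmed mean (2% cut at each end) of 150.1 on every array as tested on the file. For the software and its scaling settings, no source used here names any. No 2 arrays were identical, and the number of arrays limits the precision. Of 22690 probe sets 64 are controls, and 20380 of the others carry 1 gene symbol, 691 several and 1555 none in the platform annotation used. A probe set was tested if it exceeded 32.9, the 40th percentile of all values, on at least 4 of the 20 arrays. Log2(intensity + 12.15) entered limma 3.58.1 (lmFit, then eBayes with trend; 15 residual degrees of freedom) over all 5 stages, under R 4.3.3, and p-values were adjusted over the 17208 probe sets. The fit was checked on simulated data, where it recovered 7 of 67 planted log2 changes of 0.5, 33 of 67 of 1 and 62 of 66 of 2. Far fewer probe sets were changed there than here, so these shares need not hold for the real arrays. A gene that was not called may still have changed. For each gene the probe set with the highest mean stood for it. Named were the 20 largest rises and falls with no overlap, up to 4 risen and 4 fallen members of each of 39 lists, and those of 34 fixed markers that were tested. The text gives a selection of these. The members and lists were chosen with earlier results of these data known, so no list is independent evidence. Of 1329 list entries 1150 are on the array. Alternatives were 3 other scalings, 2 pseudocounts, 2 filters, these stages alone, no trend, the replicate number as a block, and leaving out each array. Windows of 250 bases before the start came from RefSeq promoters on GRCm38.p6 for 8278 of 10257 genes.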

Additional observations from a re-analysis of the deposited data

Results flagged for a closer look

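In 23 of the 364 groups of 4 arrays behind the named genes (6.32%), 1 array stood far from the other 3 by Dixon's criterion, which chance meets in about 1 in 20 groups. Of these, 7 were on 8-cell array 4. Values are deposited intensities, with the range of the other 3 arrays in brackets. Among 8-cell arrays with 1 high value, Aqp8 read 69.3 on array 3 (42.8 to 46.4), Aqp9 read 1657.1 on array 4 (717.2 to 789.6) and Ctsz read 1167 on array 4 (561.1 to 629.8). Also high, Dsc2 read 35.4 on array 1 (3.1 to 5.1), Gata3 read 37.0 on array 2 (4.3 to 7.2) and Gsta4 read 76.4 on array 2 (10.3 to 12.4). Likewise, Hspa1b read 1698.2 on array 2 (572.5 to 623.5), Mob1b read 261.7 on array 4 (151.4 to 166.0) and Nolc1 read 2786 on array 4 (1656 to 1800). Further, Prss8 read 23.6 on array 4 (6.2 to 8.2), Tdgf1 read 418.7 on array 4 (192.5 to 208.4) and Tjp1 read 984.9 on array 4 (777.2 to 782.8). Among 8-cell arrays with 1 low value, Bmp4 read 10.8 on array 1 (33.5 to 40.4), Cox5b read 1482.8 on array 3 (1825 to 1876) and Eomes read 80.1 on array 1 (138.1 to 140.2). Among blastocyst arrays with 1 high value, Ndufa8 read 1373.3 on array 3 (1008 to 1027), Suclg1 read 2459.1 on array 2 (1687 to 1786) and Tmsb4x read 4743.1 on array 2 (2086 to 2201). Among blastocyst arrays with 1 low value, Cox5b read 3017 on array 4 (4084 to 4302), Ddx21 read 246.9 on array 3 (289.4 to 293.8) and Dppa3 read 1664.2 on array 3 (2393 to 2517). Also low, Stat3 read 213.7 on array 2 (244.9 to 247.6) and Wdr43 read 420.6 on array 4 (538.9 to 554.2).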

How the results depend on the processing

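Calls between the stages, 7742 on the deposited scale, ranged from 6554 to 8121 with each array left out, and no other setting tried moved them by over 1.5 times. The number changed at least 2-fold, 3440, was 6513 after scaling to the hybridization controls and 1989 with the larger pseudocount, which shrinks differences of dim probe sets by construction. The percent of calls higher in blastocysts, 43.4, was 50.1 after quantile normalization, 63.0 after centring on the array median and 96.0 after scaling to the hybridization controls. The cause was not tested. Of the named genes, the log2 difference turned positive after scaling to the hybridization controls for Dppa3 (0.01), Esrrb (0.19), Ezr (0.43), Fgf4 (0.31), Gata4 (0.23), Gata6 (0.40), Npm1 (0.093), Tfap2c (0.19) and, uncalled on the deposited scale, Tjp1 (1.07). Tjp1 was 0.16 after centring and ranged from -0.168 to 0.016 with an array left out. Pou5f1 was -0.10 after quantile normalization and ranged from -0.073 to 0.105 with an array left out. With the replicate block, 7688 probe sets were called and 3449 changed at least 2-fold. Deviations from the stage means correlated at -0.10 to 0.10 between same-numbered arrays and at -0.21 to 0.26 between differently numbered ones. So few pairs cannot tell whether arrays of equal number shared a day or batch. The block changed no call of a named gene except those of Ltf and Dnmt3a, which it added. The median difference over all tested probe sets was -0.31 and -0.35 in the dimmest and next dimmest of 4 intensity classes. It was -0.07 in the class above and -0.0008 in the brightest. After quantile normalization the 4 medians were -0.12, -0.15, -0.05 and -0.04. The part of background signal in the dim classes was not tested.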

Other observations

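Lipid and amino acid genes moved member by member. Of 28 genes that carry or store lipids and retinoids, 9 were higher and 8 lower in blastocysts (4 without 8-cell array 1 or blastocyst array 3, 5 without 8-cell array 2 or blastocyst array 1), against 20% and 26.4% of all genes tested. Scd2, a fatty acid desaturase, gave 101, 87.0, 197 and 91.7 on 8-cell arrays 1 to 4 and 870.4, 912, 1129.9 and 1042 on blastocyst arrays 1 to 4 (2.99). Plin2, which coats lipid droplets, gave 289, 428, 562 and 497 and 2137, 2287, 3266 and 1702 (2.37), and Apoe, a lipoprotein, 13.2, 28.5, 33.1 and 118 and 123, 309, 378 and 543 (2.65). Values of the stages did not overlap in any of these 3 genes, and 8-cell array 4 was the nearest to the blastocysts for Apoe. Of 21 amino acid transport genes 9 were higher and 4 lower, and Slc25a13, the mitochondrial aspartate and glutamate carrier, gave 11.2, 24.4, 9.6 and 7.3 and 307, 192, 341 and 301 (3.57).

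Of 18 cholesterol synthesis genes 5 were higher and 2 lower (1 without 8-cell array 2 or blastocyst array 1 or 2), against 20% and 26.4% of all genes. Pmvk, an early enzyme of the pathway, gave 64.8, 115, 67.2 and 141 and 297, 368, 410.1 and 320.4 (1.78), while Fdft1 (squalene synthase), the first enzyme committed to sterols, gave 1032, 1186, 1253 and 1016 and 237, 325, 325 and 251 (-1.94). Both differences were called on all 4 scales. Of 25 heat shock genes 8 were higher and 6 lower, against 20% and 26.4% of all genes. Hspa1b, an inducible chaperone, gave 584, 1698, 573 and 624 and 263, 642, 90.5 and 61.4 (-2.03), overlapping groups in which 8-cell array 2 was the highest. Its near-identical copy Hspa1a gave -1.85, and probes may not tell the copies apart.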
